A study of Homo sapiens with 12 samples.

Results

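RNA-seq libraries from MIB1-iKO cells were used to compare MIB1 KO with MIB1 WT cells while BMP signaling was on. MIB1-iKO cells are NCIH838 lung cancer cells that carry a Dox-inducible Cas9 and a guide RNA against MIB1, and they were grown from single cells. The comparison took the libraries labelled plus dox 24h DMSO+BMP4 and no dox 24h DMSO+BMP4, which are 6 of the 12 libraries of the series, 3 for each genotype. All cells were first held for 3 days in 50 nM LDN, an inhibitor of BMP type I receptors, while 0.5 µg/ml Dox was either added (MIB1 KO) or omitted (MIB1 WT). LDN was then replaced by DMSO for 24 h in the presence of 10 ng/ml BMP4 (BMP-on). The remaining 6 libraries had the same Dox and BMP4 but stayed in LDN (BMP-off). Dox was given to all KO and to none of the WT libraries, and what Dox itself or DNA cleavage by Cas9 does therefore cannot be told apart from the loss of MIB1. The labels do not say whether replicates were separate cultures, and p-values therefore measure the spread between these libraries.

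MIB1 is a RING-type E3 ubiquitin ligase best known for ubiquitinating Notch ligands so that they are endocytosed in the signal-sending cell. BMP4 binds pairs of type I and type II receptor kinases, which phosphorylate SMAD1, SMAD5 and SMAD9, and these act with SMAD4 on genes such as the ID family. Several targets feed back on the pathway, among them the inhibitory SMADs SMAD6 and SMAD7, the pseudoreceptor BAMBI and the secreted antagonist Noggin, encoded by NOG.

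The targeted gene was examined first. MIB1 (ENSG00000101752, GRCh38 chr18:21704957-21870953, plus strand) had 157.9, 175.0 and 153.5 CPM (counts scaled to a common library size, with TMM factors) in the WT libraries and 33.0, 31.03 and 31.97 CPM in the KO libraries. The groups did not overlap, and KO cells retained 19.7% of the WT level. The log2 fold change was -2.34 ± 0.073 (SE, n = 3 and 3, adjusted p = 9.7e-12, edgeR quasi-likelihood test), and with BMP-off it was -2.23 ± 0.072. Of the 8 tested genes that start within 1 Mb of MIB1, 1 passed an adjusted p of 0.05, GREB1L, at -0.24 on the log2 scale (adjusted p = 0.0423), a call lost without 7 of the 12 libraries (highest adjusted p 0.225, without WT BMP-on replicate 2).

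Total counts in the 6 libraries lay between 19124010 and 29498000, and the 10 most abundant genes took 3.2% to 3.3% of the counts. Replicates of a group differed by 3.25 to 4.27 times the variance of counting alone. The epithelial keratin transcripts KRT7, KRT8 and KRT18 averaged 53.2, 34.6 and 79.1 RPKM (reads scaled to transcript length and library size) in WT cells. The other epithelial markers were lower in WT cells, with EPCAM at 3.24, CDH1 at 1.43 and KRT19 at 0.045 RPKM. Among fibroblast markers COL1A1 averaged 4.42 RPKM in WT cells and the next highest, LUM, 0.44. The lung lineage markers NKX2-1, SFTPA1, SFTPB, SFTPC and SCGB1A1 had at most 2 counts in any of the 6 libraries. The lung marker NAPSA had 6 to 27 counts. Of the 28 markers of epithelial, lung, fibroblast, endothelial and blood cells looked up for this check, none of the tested ones passed the test between KO and WT.

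With BMP-on, 630 of 17188 tested genes (3.67%) passed an adjusted p of 0.05. Of these, 227 (1.32%) were higher and 403 (2.34%) were lower in KO cells. The higher genes changed more, with a median log2 fold change of 0.474, than the lower genes, with a median of -0.300 and 369 of 403 below 0.5 in size. In 629 of the 630 genes the 3 KO libraries did not overlap the 3 WT libraries, against 23.6% of all tested genes. Scaling by library size alone in place of TMM gave 268 higher and 301 lower genes, so the excess of lower genes depended in size on the scaling. The median GC content was 50.0% in higher, 44.4% in lower and 47.8% in all tested genes, and the rank correlation, across genes, of GC content with a library's deviation from its group mean ran from -0.155 to 0.132 in WT and from -0.352 to 0.369 in KO libraries. A correction for GC content gave 1134 genes, and the part of GC content in the calls was not tested further. Without 1 WT BMP-on library 392, 347 or 326 genes passed (without replicates 1, 2 and 3), and without 1 KO BMP-on library 381, 375 or 387 passed.

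**Figure D1:**
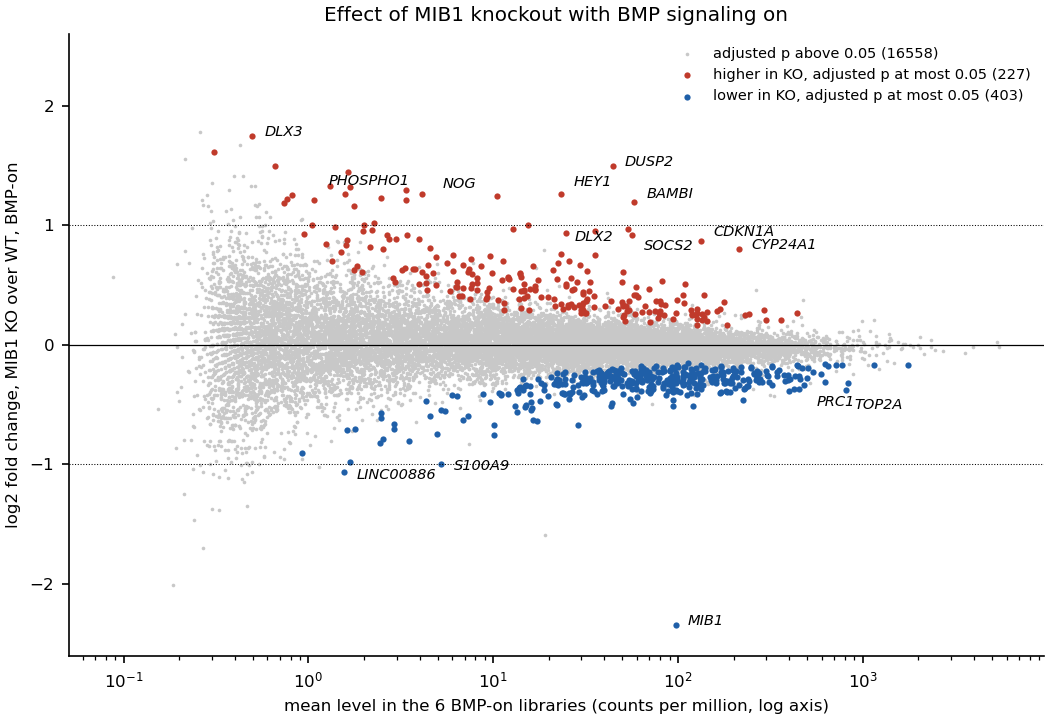
Log2 fold change of MIB1 KO over WT with BMP-on (vertical axis) against the mean level in the 6 libraries (CPM, log axis) for 17188 genes, with 227 higher genes in red, 403 lower genes in blue and dotted lines at a log2 fold change of 1 in size. Higher genes reach well past 1 on the log2 scale, while apart from MIB1 most lower genes form a dense band between about 10 and 1000 CPM at small fold changes.

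Both thresholds of the study, an adjusted p of 0.05 and a change by 1 or more on the log2 scale, were passed by 24 genes (0.14%), 22 (0.128%) higher and 2 (0.0116%) lower in KO cells. Just inside the fold threshold lay MAP3K4-AS1 at 1.01 and just outside lay H2BC7 and KCNC4, both at 1.00 to 2 decimals, and among lower genes S100A9 at -0.99 (H2BC7 and KCNC4, like GREB1L above, are outside the naming rule and were picked on their values). The higher genes spanned surface and secreted proteins, signal regulators and transcription factors. The adjusted p stayed at or below 0.05 without any 1 library for 16 of the 24 genes. It rose above it for DLX3 (without WT BMP-on replicate 2), MAP3K4-AS1 (without WT BMP-on replicate 3), ST6GALNAC2, GPER1, EPHB3, EPN3, ENSG00000268049 and PPP1R1C, of which the last 6 lost the call without 3 or more libraries, with highest adjusted p values of 0.104, 0.104, 0.163, 0.204, 0.191 and 0.217. All 8 averaged at most 48.8 counts per library. A gene on the other strand overlaps 13 of the 24, against 57.5% of all tested genes. Whether counting used the strand is not given in the sources used here.

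Among abundant genes that passed both thresholds, BAMBI, which blocks signaling as a receptor without a kinase domain, had 40.29, 32.16 and 33.55 CPM in WT and 75.08, 85.77 and 81.29 CPM in KO cells. HEY1, a transcriptional repressor induced by both BMP and Notch, had 15.14, 13.31 and 13 CPM in WT and 31.12, 33.74 and 34.18 CPM in KO cells. DUSP2, a nuclear phosphatase of MAP kinases, had 29.61, 18.61 and 21.44 CPM in WT and 62.7, 72.03 and 60.98 CPM in KO cells. In all 3 genes the lowest KO library exceeded the highest WT library, and the groups did not overlap in any of the 24 genes. Their log2 fold changes were 1.19 ± 0.078 for BAMBI (adjusted p = 1.77e-07), 1.26 ± 0.080 for HEY1 (adjusted p = 1.57e-07) and 1.49 ± 0.17 for DUSP2 (adjusted p = 0.00104).

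Several cell surface and secreted proteins were among the others. NECTIN4, an immunoglobulin-like adhesion receptor, had 1.223, 2.566 and 2.012 CPM in WT and 5.02, 4.492 and 4.933 CPM in KO cells, a log2 fold change of 1.29 ± 0.22. COL9A2, a chain of the cartilage collagen IX, had 0.9281, 0.7526 and 0.9698 CPM in WT and 2.721, 1.933 and 2.486 CPM in KO cells, a change of 1.45 ± 0.22. IL21R, the receptor chain of interleukin-21, had between 0.6842 and 0.8262 CPM in WT and between 1.84 and 1.903 CPM in KO cells, a change of 1.33 ± 0.25. These 3 genes were low, and their groups did not overlap, as in all 24 genes at both thresholds. The netrin receptor UNC5B rose by 1.23 ± 0.23 and the sialyltransferase ST6GALNAC2 by 1.16 ± 0.26, while the Eph receptor EPHB3 rose by 1.25 ± 0.31 and the membrane estrogen receptor GPER1 by 1.49 ± 0.33.

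Intracellular regulators and enzymes made up most of the rest. PHOSPHO1, a phosphatase of skeletal mineralization, had 2.362, 2.292 and 2.622 CPM in WT and 5.442, 5.589 and 6.447 CPM in KO cells, a log2 fold change of 1.26 ± 0.16 (adjusted p = 0.000285). The transcriptional cofactor LMO2 rose by 1.26 ± 0.23, the ubiquitin ligase TRIM9 by 1.21 ± 0.20 and the transposase-derived gene PGBD5 by 1.32 ± 0.21. The endocytic adaptor EPN3 rose by 1.18 ± 0.30 and the phosphatase inhibitor PPP1R1C by 1.61 ± 0.41, the latter from a mean of 7.5 counts per library. The noncoding SOCS2-AS1, which overlaps SOCS2, rose by 1.21 ± 0.15, and LINC02593, ENSG00000268049 and MAP3K4-AS1 rose by 1.02, 1.22 and 1.01 on the log2 scale. Besides MIB1, only the noncoding LINC00886 was lower at both thresholds, with 2.489, 1.779 and 2.083 CPM in WT and 0.9581, 0.9924 and 1.049 CPM in KO cells (-1.07 ± 0.20, adjusted p = 0.00419).

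Ranked by p instead of by size, the higher genes were led by SOCS2, which encodes a suppressor of cytokine and growth hormone signaling. It had 39.99, 38.35 and 38.58 CPM in WT and 71.47, 74.12 and 74.92 CPM in KO cells (0.92 ± 0.052, adjusted p = 5.09e-08). CYP24A1, the hydroxylase that inactivates vitamin D, had 163.1, 157.3 and 145.0 CPM in WT and 273.5, 277.4 and 260.2 CPM in KO cells (0.80 ± 0.051, adjusted p = 1.57e-07). Both genes lead this ranking by p, so a spread that is small beside the distance between groups follows from the choice. CDKN1A, which encodes the CDK inhibitor p21, had 105.0, 88.6 and 90.09 CPM in WT and 168.7, 185.8 and 164.5 CPM in KO cells (0.87 ± 0.071, adjusted p = 4.31e-06). The histone demethylase gene KDM7A rose by 0.95 ± 0.089 and PPP1R3C, a subunit that targets a phosphatase to glycogen, rose by 0.76 ± 0.076.

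Among the lower genes MIB1 was followed by NSD2, a methyltransferase of histone H3 lysine 36, with 201.9, 213.2 and 210.1 CPM in WT and 164.6, 156.0 and 154.6 CPM in KO cells (-0.40 ± 0.042, adjusted p = 8.23e-05). The next were UBE2C (-0.39 ± 0.042), AURKA (-0.33 ± 0.037), PRC1 (-0.34 ± 0.037) and KIF20A (-0.34 ± 0.040), all of which act in mitosis, and CDCA7L (-0.40 ± 0.048), a nuclear protein that interacts with MYC. EMP2, a tetraspan membrane protein (-0.46 ± 0.053), RDX, which links actin to the membrane (-0.36 ± 0.041), and SLPI, a secreted protease inhibitor (-0.46 ± 0.054), completed the 10 lower genes with the lowest p. All 9 genes after MIB1 thus fell by well under 1 on the log2 scale. Their groups did not overlap, as in 629 of the 630 genes that passed.

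The BMP pathway was described from its receptors to its targets. Of 12 BMP receptors and co-receptors 9 were tested, and 1 passed (11.1%, against 3.67% of all tested genes). TGFBR3, the co-receptor betaglycan, had 440.8, 471.0 and 445.9 CPM in WT and 351.6, 337.2 and 350.6 CPM in KO cells (-0.39 ± 0.046, adjusted p = 0.000185). The signaling receptors did not pass, with log2 fold changes of 0.25 ± 0.075 for BMPR2 (adjusted p = 0.0996), 0.12 ± 0.085 for BMPR1A (adjusted p = 0.592) and 0.15 ± 0.060 for ACVR1 (adjusted p = 0.262). BMPR2 passed, always positive, in 6 of 24 alternative settings (lowest adjusted p 0.000477) and ACVR1 in 1 (0.0332). None of 4 tested BMP ligand genes passed.

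Of the 12 SMADs and SMAD regulators, all were tested and 5 passed, 4 higher and 1 lower (41.7%, against 3.67% of all tested genes). SMAD9, a receptor-activated SMAD, had 28.6, 25.42 and 26.01 CPM in WT and 43.31, 46.02 and 45.29 CPM in KO cells (0.75 ± 0.068, adjusted p = 1.3e-05). The inhibitory SMAD7 had 55.35, 47.55 and 45.83 CPM in WT and 67.68, 79.08 and 61.29 CPM in KO cells (0.48 ± 0.089, adjusted p = 0.00541). SMAD6, also inhibitory, had 14.55, 11.7 and 13.15 CPM in WT and 17.09, 17.34 and 17.63 CPM in KO cells (0.41 ± 0.097, adjusted p = 0.0268). In these 3 genes the groups did not overlap, as in 629 of the 630 genes that passed. The ubiquitin ligase gene SMURF2 rose by 0.26 ± 0.048, and SMAD2, which transduces TGF-β and activin, fell by 0.21 on the log2 scale (adjusted p = 0.0477). The calls of SMAD6 and SMAD2 were lost without 5 and 8 of the 12 libraries, with the highest adjusted p values, 0.173 and 0.270, without WT BMP-on replicate 2. SMAD1, at 0.13 ± 0.065, and SMAD5, at 0.02 ± 0.048, did not pass.

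Promoters were read from RefSeq (GRCh38.p14) as windows from 250 bases before to 50 bases after a gene start, which the table gives for 15 of the 19 BMP target genes, too few to compare shares. The palindrome GTCTAGAC, in which SMAD binding half-sites face each other, occurred in 0.202% of all 35097 windows and in 1 BMP target gene, SMAD6. A GC-rich SMAD motif, GGCGCC, occurred in 19.2% of all windows and in 4 BMP target genes. The SMAD6 window is shown, on the plus strand at chr15:66701986-66702285, because it is the sole match to the palindrome on the list, with the palindrome in capitals from 12 bases before the start.
SMAD6: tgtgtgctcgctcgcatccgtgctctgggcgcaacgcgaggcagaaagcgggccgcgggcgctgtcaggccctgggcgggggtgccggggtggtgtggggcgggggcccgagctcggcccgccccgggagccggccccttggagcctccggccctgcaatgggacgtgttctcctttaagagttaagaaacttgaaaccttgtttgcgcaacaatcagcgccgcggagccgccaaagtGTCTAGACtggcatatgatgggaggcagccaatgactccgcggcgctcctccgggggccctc

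Of 19 BMP target genes 15 were tested, and 11 were higher in KO cells and 0 were lower, against 1.32% and 2.34% of all tested genes. The median log2 fold change was 0.523, against 0.002 over all tested genes, and all 15 values were positive, against 50.8% of all tested genes. The list was compiled with earlier results of these data known, so its direction is not independent evidence. NOG, the secreted antagonist, had 7.087, 5.439 and 6.25 CPM in WT and 13.68, 16.45 and 14.22 CPM in KO cells (1.24 ± 0.11, adjusted p = 1.26e-05). ID2, which inhibits basic helix-loop-helix factors, had 27.17, 19.98 and 22.56 CPM in WT and 30.77, 34.89 and 34.33 CPM in KO cells (0.52 ± 0.10, adjusted p = 0.00582). GATA2, a zinc-finger transcription factor, had 103.1, 82.45 and 85.81 CPM in WT and 127.2, 141.8 and 116.5 CPM in KO cells (0.51 ± 0.10, adjusted p = 0.0164), a call lost without 3 libraries (highest adjusted p 0.0705, without WT BMP-on replicate 3). The related ID1 and ID3 did not pass. Their groups did not overlap, which also held in 23.6% of all tested genes. ID1 had 106.8, 101.0 and 109.0 CPM in WT and 143.3, 124.8 and 131.4 CPM in KO cells (0.34 ± 0.10, adjusted p = 0.127), and ID3 had 403.5, 424.4 and 418.6 CPM in WT and 585.5, 515.4 and 510.9 CPM in KO cells (0.37 ± 0.14, adjusted p = 0.236). They passed in 6 and 3 of 24 alternative settings.

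**Figure D2:**
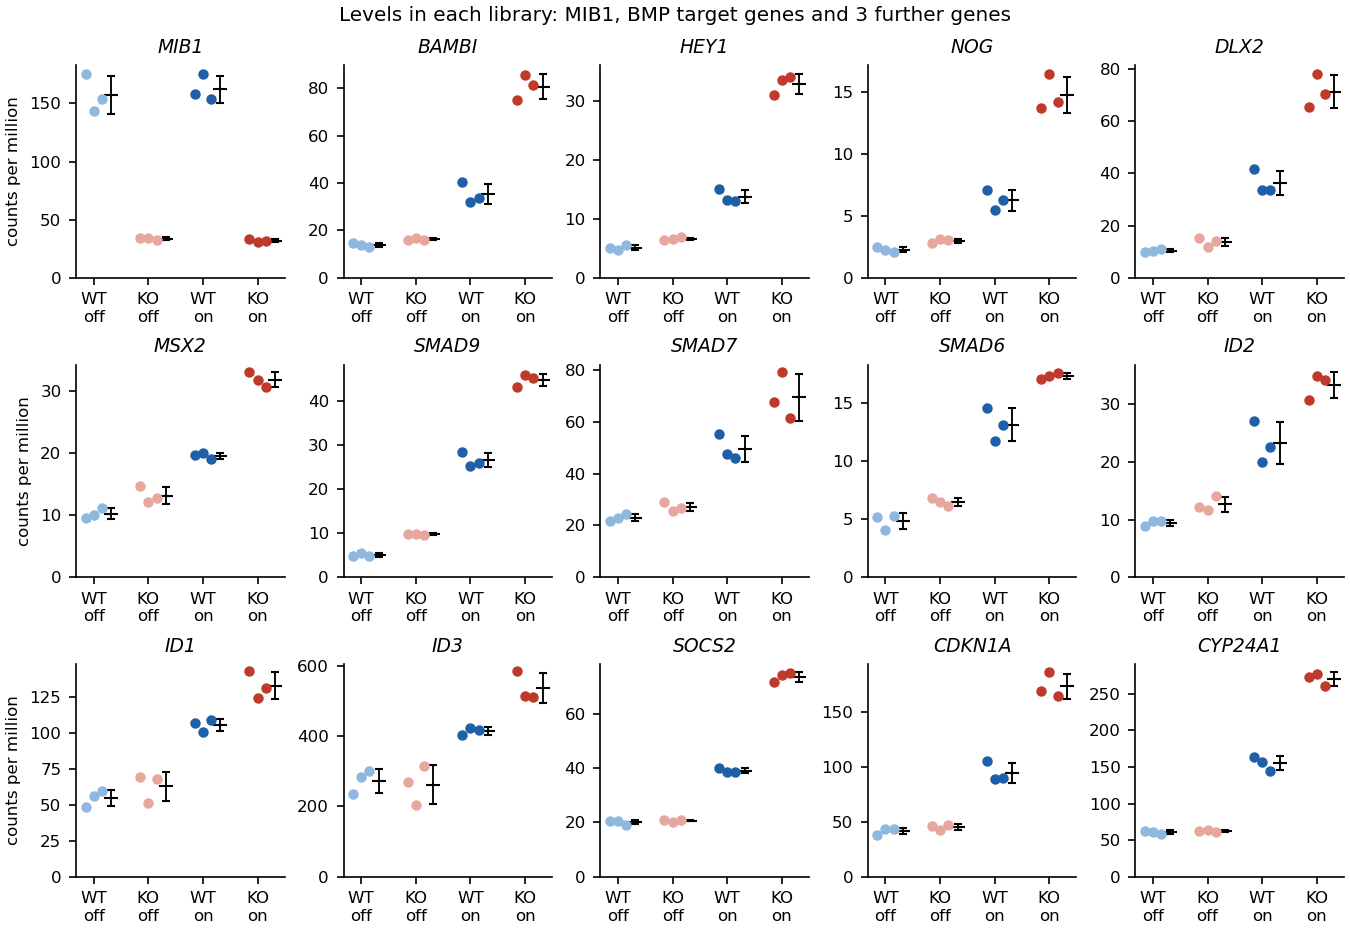
Level (CPM, linear axes from 0) of 15 genes in each of the 12 libraries, by genotype (WT, KO) and by BMP-off or BMP-on, with the mean ± SD of 3 libraries beside the points. MIB1 is low in all 6 KO libraries, and for BAMBI, HEY1, NOG, DLX2, SOCS2, CDKN1A and CYP24A1 the 3 KO BMP-on libraries lie above the 9 others.

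Summed over the 19 BMP target genes, WT cells had between 822 and 870 CPM and KO cells between 1156 and 1241 CPM with BMP-on. With BMP-off the same sum was between 399 and 484 CPM in WT and between 400 and 543 CPM in KO cells. The sums overlapped between genotypes in BMP-off and not in BMP-on, but ID3 alone averaged 415.5 CPM of the WT BMP-on sum. Gene by gene, 13 of the 15 tested BMP targets were positive in BMP-off, against 47.5% of all tested genes, with a median log2 fold change of 0.375, and 1 passed (SMAD9). Of 17 BMP antagonists 11 were tested, and 27.3% of these passed, against 3.67% of all tested genes. NOG and BAMBI were higher, and TWSG1, an extracellular BMP-binding protein, was lower (-0.19 ± 0.051, adjusted p = 0.0484), a call lost without 10 of the 12 libraries, where the highest adjusted p was 0.266 (without WT BMP-on replicate 2).

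Homeobox genes of the DLX and MSX families, many of which BMPs induce in the embryo, were also listed by family. Of 8 genes 6 were tested, 4 were higher and 0 lower, with a median log2 fold change of 0.628. The share that passed was 66.7%, against 3.67% of all tested genes. This list shares members with the BMP target list, among them DLX3. The SMAD and antagonist lists share members with the BMP target list too, among them SMAD6 and NOG. The counts on these lists therefore overlap. DLX2 had 41.55, 33.83 and 33.8 CPM in WT and 65.46, 78.09 and 70.34 CPM in KO cells (0.97 ± 0.094, adjusted p = 4.19e-05). MSX2 had 19.62, 20.01 and 19.07 CPM in WT and 33.0, 31.76 and 30.61 CPM in KO cells (0.70 ± 0.079, adjusted p = 0.000113). DLX4 rose by 0.56 ± 0.10. DLX3 had the largest log2 fold change of the 22 higher genes, 1.75 ± 0.36, but rested on 6, 4 and 8 counts in WT and 19, 15 and 20 counts in KO libraries. DLX1, at 0.23 ± 0.066, did not pass (adjusted p = 0.0677), but passed in 8 of 24 alternative settings.

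Genes of the Notch pathway were listed because MIB1 acts on Notch ligands. None of the 10 tested ligand, receptor and ligase genes passed, with log2 fold changes of 0.19 ± 0.055 for the ligand JAG1 (adjusted p = 0.0809) and -0.17 ± 0.11 for NOTCH2 (adjusted p = 0.581). Of 8 tested Notch target genes, HEY1 and HES1 were higher and DTX4 was lower (37.5%, against 3.67% of all tested genes). HES1, a repressor of the helix-loop-helix class, had 19.7, 16.8 and 17.64 CPM in WT and 25.06, 28.0 and 26.41 CPM in KO cells (0.55 ± 0.077, adjusted p = 0.00062). DTX4, a ubiquitin ligase of the Deltex family, had 16.16, 16.45 and 15.3 CPM in WT and 11.92, 10.55 and 9.904 CPM in KO cells (-0.56 ± 0.090, adjusted p = 0.0016). The Notch target list thus held changes in both directions, and HEY1 stands on the BMP target list as well.

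Many of the lower genes belonged to cell division. Of 227 genes on 9 lists of the cell cycle, DNA replication, mitosis and recombination, 226 were tested, and 112 were lower and 0 higher in KO cells. Over all tested genes 2.34% were lower and 1.32% higher, and the lists were compiled with earlier results of these data known. The median log2 fold change was -0.235, against 0.002 over all tested genes, and 216 of 226 values were negative, against 49.2% of all tested genes. The changes were small, the lowest being -0.427, and the 112 genes made up 27.8% of all lower genes. In bulk RNA, fewer cells in a phase of the cell cycle and less RNA per cell cannot be told apart. The number of lower genes was 78 to 132 without 1 library and was lowest, at 78, without WT BMP-on replicate 1, and over all settings it was 56 to 149, lowest on the log2(RPKM + 1) scale with no filter.

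Summed over these genes, the level was 30770, 30317 and 30256 CPM in the WT libraries and 25667, 25941 and 25820 CPM in the KO libraries, and the KO mean was 84.8% of that in WT. With BMP-off the sum was 34103, 32664 and 32493 CPM in WT and 32943, 33003 and 32242 CPM in KO cells. The 3 KO BMP-on libraries were thus the lowest of all 12, and the BMP-off genotypes overlapped.

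**Figure D3:**
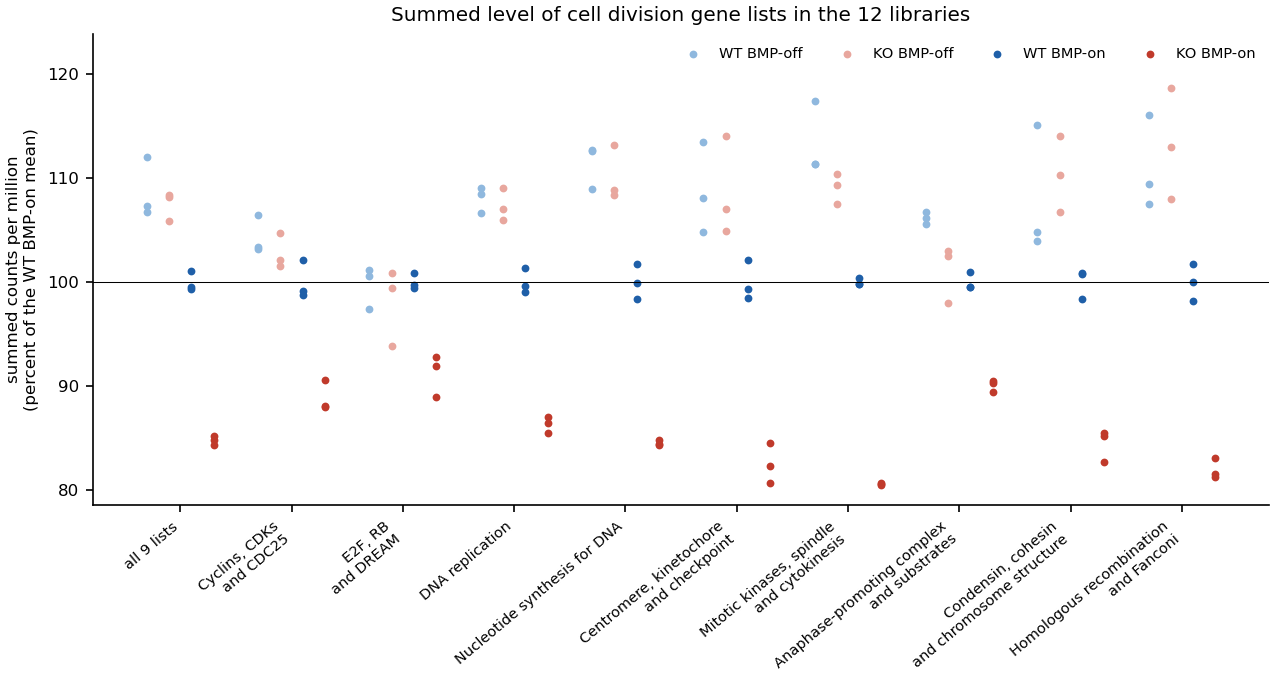
Summed CPM of 9 cell division gene lists, together and one by one, in each of the 12 libraries as a percent of the WT BMP-on mean (vertical axis, not starting at 0), with points colored by genotype and BMP-off or BMP-on. The KO BMP-on libraries lie below all others in each list, at 84.8% on average for all lists together.

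The mitotic list had the largest share of lower members of the 9 lists. Of 34 genes for mitotic kinases, spindle and cytokinesis, 30 were lower and 0 higher, against 2.34% and 1.32% of all tested genes. The median was -0.314. In all 34 the KO libraries did not overlap the WT libraries, against 23.6% of all tested genes. PRC1, which bundles microtubules in the spindle midzone, had 526.2, 539.3 and 551.3 CPM in WT and 428.7, 417.3 and 434.8 CPM in KO cells (-0.34 ± 0.037, adjusted p = 9.36e-05). AURKA, the centrosomal kinase, had 360.4, 356.4 and 360.5 CPM in WT and 278.9, 287.9 and 288.4 CPM in KO cells (-0.33 ± 0.037, adjusted p = 9.36e-05). KIF15, a spindle motor, had 80.62, 79.5 and 82.51 CPM in WT and 60.47, 60.49 and 64.98 CPM in KO cells (-0.38 ± 0.050, adjusted p = 0.000421). These genes were named for their low p, so a decrease that is large beside the spread within a group follows from that choice.

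The next counts stand against 2.34% lower among all tested genes. Of 35 genes of the centromere, kinetochore and spindle checkpoint 17 were lower (9 to 21 without 1 library, lowest without KO BMP-on replicate 1), with a median of -0.254, among them the checkpoint kinase BUB1 (-0.31 ± 0.039), its relative BUB1B (-0.32 ± 0.049) and the kinetochore scaffold KNL1 (-0.41 ± 0.070). Of 20 genes of condensin, cohesin and chromosome structure 11 were lower (6 to 13 without 1 library, lowest without WT BMP-on replicate 1). TOP2A, the topoisomerase that untangles sister chromatids, had 910.8, 937.0 and 918.3 CPM in WT and 701.1, 695.5 and 730.7 CPM in KO cells (-0.38 ± 0.051, adjusted p = 0.000489). Of 21 genes of the anaphase-promoting complex and its substrates 4 were lower (2 without WT BMP-on replicate 3, KO BMP-on replicate 1 or KO BMP-on replicate 2), among them its partner UBE2C, with 192.2, 189.7 and 197.2 CPM in WT and 152.9, 142.9 and 145.0 CPM in KO cells (adjusted p = 9.01e-05), and its activator CDC20 (-0.34 ± 0.059).

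DNA replication and its substrates followed, to be read against 2.34% lower and 1.32% higher among all tested genes. Of 48 DNA replication genes 23 were lower and 0 higher (14 to 28 lower without 1 library, lowest without KO BMP-on replicate 3), with a median of -0.226. GINS1, a subunit of the replicative helicase, had 118.6, 117.1 and 114.9 CPM in WT and 96.58, 93.13 and 92.6 CPM in KO cells (-0.31 ± 0.048, adjusted p = 0.00127). POLA2, a subunit of the priming polymerase, had 134.0, 132.0 and 132.7 CPM in WT and 111.1, 111.1 and 109.2 CPM in KO cells (-0.27 ± 0.040, adjusted p = 0.00118). The groups did not overlap in either gene, as in 629 of the 630 genes that passed. Of 9 genes for DNA nucleotides 4 were lower (2 without any 1 WT BMP-on library or KO BMP-on replicate 1), including DUT, which removes dUTP (-0.42 ± 0.056), and TYMS, thymidylate synthase (-0.30 ± 0.044). Of 25 genes of homologous recombination and the Fanconi pathway 12 were lower (8 to 14 without 1 library, lowest without KO BMP-on replicate 2), including the polymerase POLQ (-0.39 ± 0.069).

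The regulators of the cycle moved in both directions. Of all tested genes 2.34% were lower and 1.32% higher. Of 15 tested cyclins, CDKs and CDC25 phosphatases 7 were lower (5 to 8 without 1 library). CCNB1, the mitotic cyclin, was at -0.30 ± 0.042 and its kinase CDK1 at -0.27 ± 0.050. Of 19 E2F, RB and DREAM genes 4 were lower (3 to 6 without 1 library, 1 to 7 over all settings). They were FOXM1, a transcription factor of mitotic genes (-0.34 ± 0.051), RBL1 (-0.40 ± 0.075), the repressor E2F8 (-0.38 ± 0.068) and E2F2 (-0.30 ± 0.068). The call of E2F2 was lost without 4 libraries, with a highest adjusted p of 0.102 without KO BMP-on replicate 2. Of 5 tested CDK inhibitors 2 were higher, CDKN1A and CDKN2C, the latter with 71.59, 66.13 and 71.44 CPM in WT and 88.34, 92.14 and 89.53 CPM in KO cells (0.37 ± 0.056, adjusted p = 0.00123). CDKN1B, which encodes p27, did not pass (-0.07 ± 0.055, adjusted p = 0.669).

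Of 24 tested p53 target genes 2 were higher, CDKN1A and TP53INP1 (0.59 ± 0.10), and 1 was lower, DDB2, which recognizes DNA damage (-0.30 ± 0.073). The call of DDB2 was lost without 5 libraries, with a highest adjusted p of 0.155 without WT BMP-on replicate 3. The median over the list was 0.032, and 12.5% of its tested members passed, against 3.67% of all tested genes.

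Promoter letters were compared for the lower genes, 81.4% of which have a window. TTTGAA, the core of the cell cycle homology region found in many mitotic promoters, was searched on both strands and occurred in 15.2% of all windows, in 22.4% of those of lower genes, in 68.6% of those of the mitotic list and in 1.85% of those of the DNA replication list. The E2F motif, spelled as TTTGGCGC, TTTCCCGC, TTTCGCGC or TTTGCCGC on both strands, occurred in 3.32% of all windows, in 12% of those of lower genes, in 40.7% of those of the replication list and in 5.71% of those of the mitotic list. CCAAT occurred in 34.6% of all windows and in 74.3% of those of the mitotic list, but also in 91.7% of those of the unfolded protein response list, on which no gene passed. In the windows of higher genes TTTGAA occurred in 9.96% and the E2F motif in 2.49%, and in those of all tested genes in 10.4% and 4.77%, but only 78% and 64.7% of these genes have a window, and these shares are given without a comparison. These matches are letters in a window and do not show that a factor binds there.

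Shown are the promoters of the 2 mitotic genes with the lowest p that hold TTTGAA and of the 2 replication genes with the lowest p that hold an E2F motif, 5′ to 3′ on the strand of the gene, with the match in capitals (TTCAAA and GCGCCAAA are matches on the opposite strand). The KIF15 window also holds the E2F motif as GCGCCAAA, directly before its TTCAAA and left in lower case. PRC1 lies on the minus strand at chr15:90994486-90994785, KIF15 on the plus strand at chr3:44761544-44761843, POLA2 on the plus strand at chr11:65261712-65262011 and GINS1 on the plus strand at chr20:25407423-25407722. The matches begin 20, 35 and 53 bases before the start in PRC1, KIF15 and POLA2, and at base 6 after it in GINS1.
PRC1: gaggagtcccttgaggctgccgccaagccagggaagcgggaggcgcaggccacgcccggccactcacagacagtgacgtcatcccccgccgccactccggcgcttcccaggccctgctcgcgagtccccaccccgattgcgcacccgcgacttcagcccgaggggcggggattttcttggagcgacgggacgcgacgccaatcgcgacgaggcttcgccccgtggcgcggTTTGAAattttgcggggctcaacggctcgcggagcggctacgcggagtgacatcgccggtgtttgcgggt
KIF15: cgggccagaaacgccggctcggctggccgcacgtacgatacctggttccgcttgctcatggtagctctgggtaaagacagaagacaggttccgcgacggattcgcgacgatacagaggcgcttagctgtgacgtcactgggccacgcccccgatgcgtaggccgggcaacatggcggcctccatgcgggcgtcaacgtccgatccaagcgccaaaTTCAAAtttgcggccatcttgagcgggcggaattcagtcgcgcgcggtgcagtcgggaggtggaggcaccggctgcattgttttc
POLA2: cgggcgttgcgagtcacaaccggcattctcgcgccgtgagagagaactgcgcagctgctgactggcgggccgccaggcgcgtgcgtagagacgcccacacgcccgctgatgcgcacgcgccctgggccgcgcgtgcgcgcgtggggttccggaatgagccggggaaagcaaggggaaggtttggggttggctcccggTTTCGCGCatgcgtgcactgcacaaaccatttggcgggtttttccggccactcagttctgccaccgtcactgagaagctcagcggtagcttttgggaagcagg
GINS1: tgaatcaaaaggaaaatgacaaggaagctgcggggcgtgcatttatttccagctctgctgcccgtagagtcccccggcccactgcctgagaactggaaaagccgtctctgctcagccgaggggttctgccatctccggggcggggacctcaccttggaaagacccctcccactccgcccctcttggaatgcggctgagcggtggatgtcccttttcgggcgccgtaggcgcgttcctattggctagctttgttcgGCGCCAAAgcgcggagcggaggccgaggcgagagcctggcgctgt

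**Figure D4:**
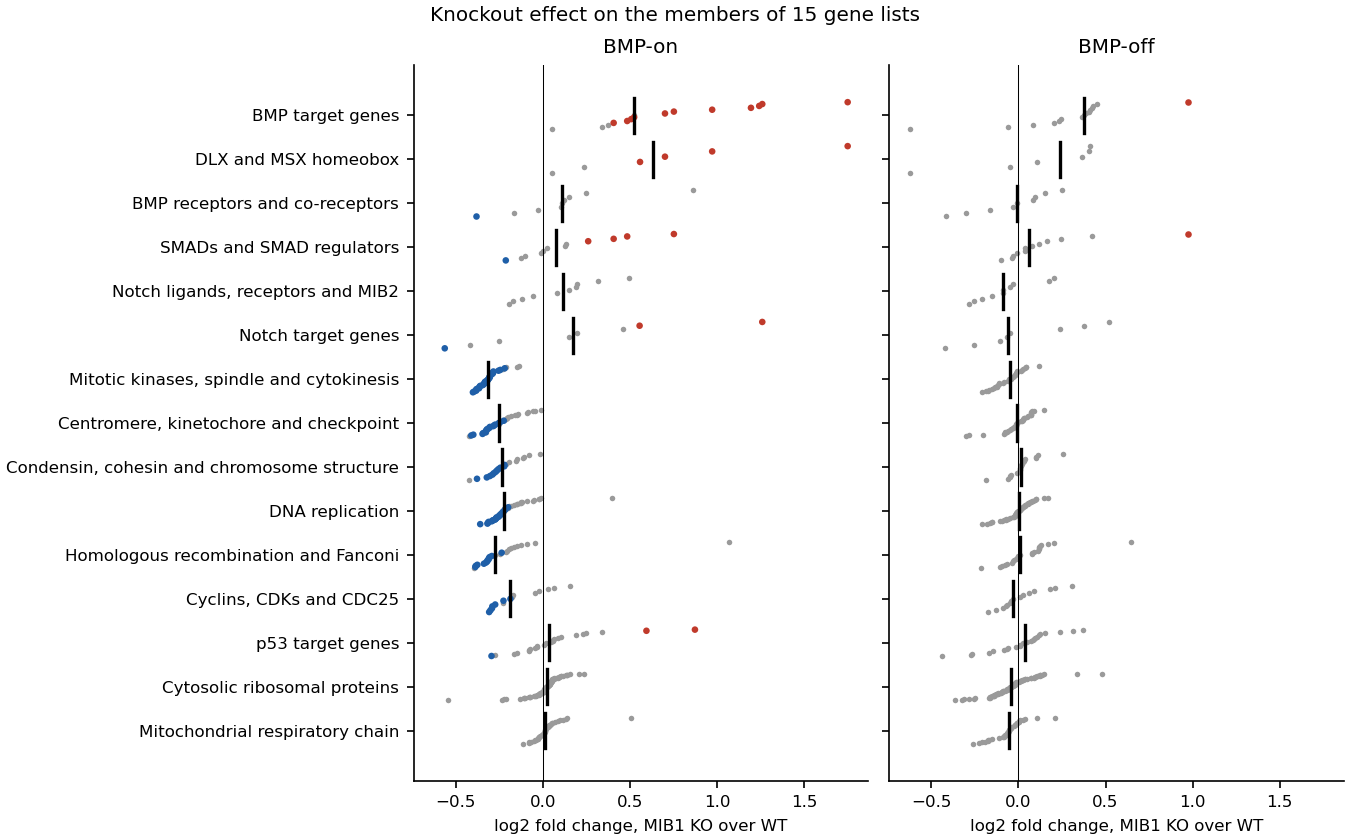
Log2 fold change of MIB1 KO over WT of each tested member of 15 gene lists with BMP-on (left) and BMP-off (right), with members that passed in red (higher) or blue (lower), the others in gray and the list median as a black bar. With BMP-on the cell division lists lie left of 0 and the BMP target list right of it, and with BMP-off the medians of the cell division lists lie near 0.

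On the lists of signal regulators outside the BMP pathway, the shares of members that passed were 46.2% for KLF factors, 21.1% for ERK feedback, and 14.3% for both immediate early and SOCS genes, against 3.67% of all tested genes. These lists were compiled with earlier results of these data known, so their shares are not independent evidence. Of 19 genes of feedback on the ERK pathway 4 were higher, DUSP2, SPRED3 (0.45 ± 0.12), SPRY2 (0.44 ± 0.10) and DUSP1 (0.25 ± 0.050), all of which restrain MAP kinase signaling. The calls of SPRED3, SPRY2 and DUSP1 were lost without 8, 5 and 1 of the 12 libraries, with highest adjusted p values of 0.263, 0.148 and 0.0566 (without KO BMP-on replicate 1, WT BMP-on replicate 3 and WT BMP-on replicate 2). Of 14 immediate early genes 2 were higher, IER2 (0.36 ± 0.077) and MYC (0.31 ± 0.073), each losing the call without 4 libraries (highest adjusted p 0.0907 and 0.122). The KLF transcription factors split, with KLF4 (0.32 ± 0.073), KLF10 (0.29 ± 0.075) and KLF13 (0.25 ± 0.050) higher and KLF6 at -0.29 ± 0.052 and KLF5 at -0.26 ± 0.043 among 3 that were lower. KLF4 and KLF10 lost the call without 3 and 6 libraries (highest adjusted p 0.118 and 0.231). SOCS2 was the 1 gene of 7 tested on the SOCS list to pass.

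The TGF-β branch gave 4 calls on its lists, and 14.3% of the tested members of each passed, against 3.67% of all tested genes. Of 14 tested ligands, receptors and latency proteins 2 were lower and 0 higher. TGFB2, a TGF-β ligand, had 2.658, 3.079 and 3.089 CPM in WT and 2.184, 1.985 and 1.787 CPM in KO cells (-0.57 ± 0.13, adjusted p = 0.0237), and LTBP1, which binds latent TGF-β, changed by -0.31 ± 0.063. These calls were lost without 4 and 2 libraries (highest adjusted p 0.131 without KO BMP-on replicate 3 and 0.0661 without WT BMP-on replicate 2). Of 14 tested TGF-β target genes SMAD7 was higher and THBS1, a matrix glycoprotein, lower, with 55.85, 50.05 and 46.95 CPM in WT and 33.49, 39.23 and 34.53 CPM in KO cells (-0.51 ± 0.088, adjusted p = 0.00316).

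Epithelial and matrix genes showed single changes. On the lists described here the share that passed ran from 8.33% (S100 proteins) to 25.0% (keratins), against 3.67% of all tested genes. It was 9.52% for integrins and laminins. CLDN4, a tight junction claudin, was higher (0.82 ± 0.19) and its partner OCLN was lower (-0.33 ± 0.060), the 2 calls among 15 tested epithelial and mesenchymal genes. KRT17, a keratin of basal and stressed epithelia, had 20.54, 21.69 and 20.8 CPM in WT and 13.57, 13.01 and 13.87 CPM in KO cells (-0.64 ± 0.14, adjusted p = 0.0241). The laminin chain LAMA3 (-0.45 ± 0.089) and the integrin chain ITGB8 (-0.63 ± 0.13) were the 2 lower genes of 21. SOX9, a transcription factor of cartilage and airway progenitors, had between 14.04 and 14.23 CPM in WT and between 18.86 and 19.89 CPM in KO cells (0.46 ± 0.072, adjusted p = 0.00139). S100A9, an inflammatory calcium-binding protein, changed by -0.99 ± 0.21. KRT17 and S100A9 have close paralogs, with which they could share reads. The calls of CLDN4, KRT17 and S100A9 were lost without 4, 6 and 3 libraries (highest adjusted p 0.138, 0.106 and 0.0682), and those of LAMA3 and ITGB8 without KO BMP-on replicate 1 (0.0522) and WT BMP-on replicate 2 (0.0519).

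No gene passed on 10 of the 44 lists. These included 78 cytosolic ribosomal protein genes with a median of 0.021, 38 genes of the respiratory chain with a median of 0.011, 24 genes of cholesterol synthesis and uptake, 17 NRF2 targets, 14 tested genes of the integrated stress response, 10 of the unfolded protein response and 16 tested interferon-stimulated genes. The NRF2 target HMOX1, which degrades heme, had a log2 fold change of 0.32 ± 0.091 (adjusted p = 0.0767), the highest value on its list, and passed in 10 of 24 alternative settings. Over all lists 166 of 723 tested genes passed, 32 higher and 134 lower. Of all tested genes 3.67% passed, 1.32% higher and 2.34% lower. The cell division lists held 112 of the lower genes, and the lists were compiled with earlier results of these data known.

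The knockout effect was then set beside that in BMP-off, which shares no library with it and has the same Dox treatment. In BMP-off 7 genes passed (0.0407%), namely MIB1, SMAD9, SLPI, KRT17, VTN, QPCT and S100A8, of which 5 also passed with BMP-on (the naming of VTN and QPCT followed a look at their values). The BMP-on call of VTN was lost without 8 libraries (highest adjusted p 0.188, without KO BMP-on replicate 3). This count was 40 without WT BMP-off replicate 1, 2 without WT BMP-off replicate 2 and 50 without KO BMP-off replicate 3. The rank correlation of GC content with a library's deviation from its group mean ran from -0.425 to 0.396 in WT and from -0.603 to 0.586 in KO BMP-off libraries, and its part in these counts was not tested beyond a GC correction, which gave 85 genes. The 227 genes higher with BMP-on had a median log2 fold change of 0.119 in BMP-off, where 78.9% were positive against 47.5% of all tested genes. The 403 lower genes had a median of -0.045, and 68.7% were negative against 52.5%. The effect was more positive with BMP-on than with BMP-off for 220 of the higher genes. It was more negative for 394 of the lower genes, but both sets were chosen in BMP-on. SMAD9 was an exception, with a log2 fold change of 0.97 in BMP-off (adjusted p = 5.65e-05) against 0.75 in BMP-on.

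**Figure D5:**
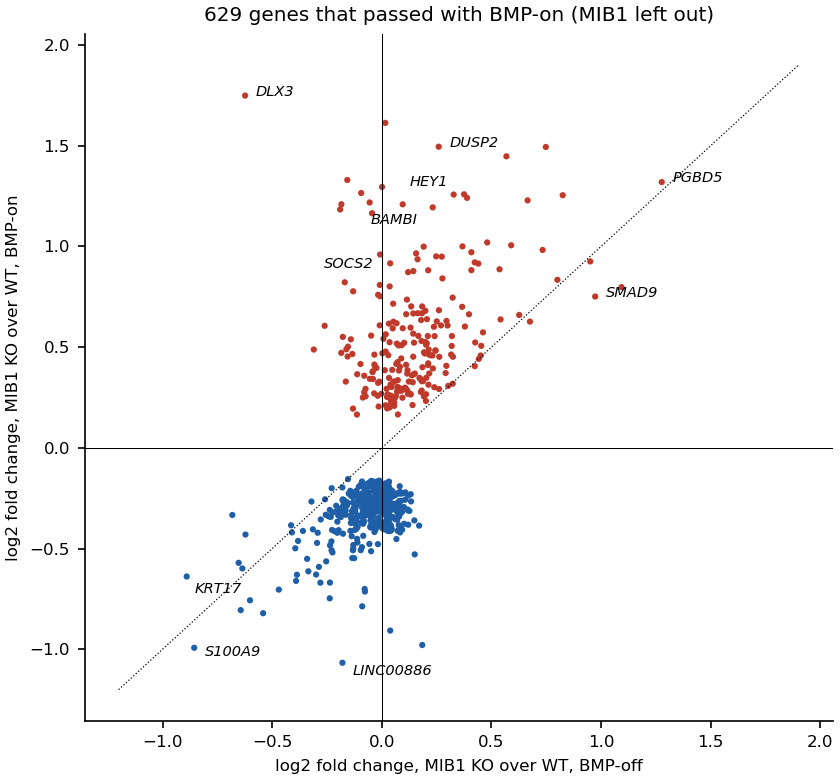
Log2 fold change of MIB1 KO over WT in BMP-on (vertical axis) against BMP-off (horizontal axis) for the 629 genes other than MIB1 that passed with BMP-on, higher in red and lower in blue, with equal effects on the dotted line. Most points lie close to the vertical line at 0, while SMAD9 and PGBD5 lie near the dotted line and KRT17 lies beyond it.

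The interaction tested whether the knockout effect differed between BMP-on and BMP-off. It passed for 16 genes (0.0931%), all of them among the 630, and 1819 had an unadjusted p under 0.05. In the 7 positive genes the knockout effect was higher with BMP-on, by 0.88 ± 0.077 for SOCS2 (adjusted p = 7.2e-05), 0.77 ± 0.074 for CYP24A1 (adjusted p = 0.00013) and 0.96 ± 0.12 for BAMBI (adjusted p = 0.00263). SOCS2 had 20.55, 20.48 and 19.15 CPM in WT and 20.8, 20.29 and 20.74 CPM in KO cells with BMP-off, so the genotypes overlapped there. The 9 negative genes included TOP2A, KIF15 and POLQ, but without 9 of the 12 libraries, one at a time, no negative gene passed. Of the 226 cell division genes 203 had a negative interaction, against 47.6% of all tested genes, with a median of -0.224, and 3 passed (52.4% of all tested genes had a positive interaction). With a replicate block 3 genes passed the interaction, all positive, and without 1 library between 4 and 236 passed, with 236 without WT BMP-off replicate 1 and 220 without KO BMP-off replicate 3.

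The BMP response of each genotype shares the BMP-on libraries with the comparison above, so its values are given side by side without a test of their likeness. For BAMBI the log2 difference of BMP-on over BMP-off was 1.35 in WT and 2.31 in KO cells. The same responses were 0.96 and 1.83 for SOCS2, 1.18 and 1.94 for CDKN1A, and 1.34 and 2.11 for CYP24A1. For SMAD9 they were 2.41 and 2.19, and for SMAD6 1.44 and 1.42. In the cell division genes TOP2A, PRC1 and POLA2 they were -0.27 and -0.67, -0.19 and -0.41, and -0.20 and -0.45.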

How the data were processed

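RNA-seq of 12 libraries of MIB1-iKO cells (3 for each of 4 groups) was read as single-end 50-base fragments. After removal of reads from ribosomal RNA, the authors aligned with GSNAP to GRCh38 and deposited raw counts per gene on exons and an RPKM table normalized between libraries. Which of the library kits named was used, and whether counting used the strand, are not given in the sources used here. The counts held 58302 identifiers, 57532 with a symbol.

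Counts of all 12 libraries were filtered for low values and TMM-scaled, and 17188 genes were fitted together with edgeR's quasi-likelihood test (edgeR 4.0.16, R 4.3.3, 8 residual degrees of freedom), with Benjamini-Hochberg adjustment over all genes tested. BMP-on, BMP-off and interaction contrasts came from this fit. Only its BMP-on contrast was tried on simulated counts, which had the same spread for every gene. Alternatives used DESeq2 1.42.0, limma 3.58.1, the deposited RPKM on the log2(RPKM + 1) and log2(RPKM + 0.1) scales, other filters, a GC correction, a replicate block and the omission of each library.

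The groups and 44 gene lists were chosen with earlier results of these data known. Genes were named if they passed both thresholds, were among the 10 lowest p in a direction, or were among the 5 lowest p on a list, and other list members were named where needed. Total counts of 19124010 to 29498000 in the 6 libraries set the counting precision. Gene positions are from GENCODE 44 and promoter windows from RefSeq. All tests were two-sided.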

Additional observations from a re-analysis of the deposited data

Results flagged for a closer look

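For 16 genes the knockout effect differed between BMP-on and BMP-off by the interaction test (edgeR quasi-likelihood, adjusted over all genes). The log2 difference of the effects, BMP-on minus BMP-off, was 0.96 for BAMBI, 0.88 for both HEY1 and SOCS2, 0.80 for HTRA1, 0.78 for PPP1R3C, 0.77 for CYP24A1 and 0.75 for CDKN1A. It was -0.56 for POLQ, -0.50 for ZNF367, -0.43 for ARHGAP11A, -0.42 for KIF15, -0.40 for both PM20D2 and TOP2A, -0.38 for CDCA7L, -0.35 for NSD2 and -0.33 for SHCBP1. No negative gene passed without 9 of the 12 libraries, one at a time, with the replicate block or on the log2(RPKM + 1) and log2(RPKM + 0.1) scales with a filter. Among these 16 genes HTRA1, a secreted serine protease, was the one with opposite signs beyond 0.3 in size, at 0.49 with BMP-on and -0.31 with BMP-off. Its BMP-off effect did not pass (adjusted p = 0.354, edgeR quasi-likelihood test). HTRA1, ZNF367, ARHGAP11A, PM20D2 and SHCBP1 were named after their values were seen.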

How the results depend on the processing

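The log2 fold change of MIB1 was -2.38 to -2.28 without 1 library. Omitting 1 library gave 19 to 33 genes at both thresholds, 326 to 862 at an adjusted p of 0.05, 113 to 200 list members, 2 to 50 genes with BMP-off and 4 to 236 genes for the interaction. At both thresholds 24 genes became 12 with at least 10 counts in every library, 40 with the 6 libraries fitted alone and 5 on the log2(RPKM + 1) scale, with a filter or without. At an adjusted p of 0.05, 630 became 1237 with the 6 libraries alone, 406 on the log2(RPKM + 0.1) scale, 268 on the log2(RPKM + 1) scale with no filter and 1134 with the GC correction. The 166 list members became 79 on the log2(RPKM + 1) scale with no filter. With BMP-off, 7 became 35 with DESeq2, 11 with limma-voom, 233 with no filter, 3 with 6 libraries alone, 3 and 4 on the log2(RPKM + 1) and log2(RPKM + 0.1) scales, and 85 with the GC correction. The interaction's 16 became 154 with DESeq2, 10 with library size scaling, 318 with no filter, 4 and 2 on these RPKM scales and 157 with the GC correction. The causes of these shifts were not tested. Deviations of same-numbered WT and KO BMP-on libraries correlated at -0.0889, -0.0224 and 0.0303. These values do not show whether the samples were set up as pairs. A replicate block gave 479 genes with BMP-on, 144 list members, 6 with BMP-off and 3 for the interaction.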
